A study of Rattus norvegicus with 23 samples.

Results

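Old rats whose spatial learning had failed were compared with young rats in CA3, the hippocampal field whose pyramidal neurons are driven by mossy fibres from the dentate gyrus. The comparison rests on 17 of the 23 arrays of the series, 8 from aged impaired animals of 24 to 26 months and 9 from young animals of 6 months, chosen by the group named in the sample titles, with 1 array per male Long-Evans rat. All animals were untreated, lived in single cages with free access to food and were killed 2 weeks after testing in the Morris water maze, and impairment means a learning index worse than that of the young. The other 6 arrays, from aged rats that learned as well as the young, share the fit and are given as values beside a gene where they bear on it. Age and learning outcome differ together between the compared groups, so that their effects cannot be told apart in this contrast. The tissue was microdissected CA3 with all its cell types, and in such bulk tissue fewer cells of a type and less RNA per cell cannot be told apart.

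Axon branches link CA3 neurons into a network that excites itself, and this network is held in check by interneurons and by channels that limit firing. Its synapses depend on calcium entry at the terminal, on the release of vesicles and on glutamate receptors across the cleft, and the supply of long axons depends on motor proteins that run on microtubules. Astrocytes, oligodendrocytes, microglia and vessels surround these neurons and support, insulate or survey them. With age the hippocampus is known for glial activation and for CA3 neurons that fire too readily.

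Each value is a log2 expression level of a probe set, a group of probes for 1 transcript, and each difference is the aged impaired mean minus the young mean on the log2 scale with its standard error (SE). Probe sets with a level of at least 4 on at least 6 of the 23 arrays were tested, 14647 in all, and a probe set was called at a limma adjusted p of at most 0.05. Array medians lay between 3.388 and 3.459, and on average each array correlated with its fellows at 0.9959 to 0.9974. On the largest axis of variation, which held 16.2% of the variance of the tested probe sets, the aged impaired arrays lay between -22.77 and -5.60 and the young between 1.12 and 15.10, and these ranges did not meet. Aged unimpaired arrays 1, 4, 6 and 8 lay inside the young range, at 6.13 to 7.71. Aged unimpaired arrays 2 and 7 lay at -1.92 and -8.72, so this axis did not separate all old animals from the young.

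Several findings below touch genes whose start regions can be read, and the stretches that the text refers to are printed here from RefSeq (assembly GRCr8), 5′ to 3′ on the strand of the gene. Col4a1 and Col4a2, the paired type IV collagen chains of basement membranes, both fell and are transcribed away from each other from starts that lie 76 bases apart. The stretch between the starts (chr16:84885521-84885596) is shown on the strand of Col4a1, with no capitals because no motif was searched in it.
Col4a1 to Col4a2: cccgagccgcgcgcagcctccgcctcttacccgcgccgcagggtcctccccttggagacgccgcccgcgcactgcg
The chaperone genes Dnajb1 and Hsph1 fell while the small heat shock protein genes Hspb1 and Hspb8 rose. The call of Hsph1 (1.13-fold lower) ended in 10 of the 17 fits that left out 1 array. Capitals in their 250 bases upstream of the start mark GAANNTTC or TTCNNGAA, short forms of the heat shock element, each of which reads the same on both strands.
Dnajb1 (chr19:41431142-41431391, minus strand): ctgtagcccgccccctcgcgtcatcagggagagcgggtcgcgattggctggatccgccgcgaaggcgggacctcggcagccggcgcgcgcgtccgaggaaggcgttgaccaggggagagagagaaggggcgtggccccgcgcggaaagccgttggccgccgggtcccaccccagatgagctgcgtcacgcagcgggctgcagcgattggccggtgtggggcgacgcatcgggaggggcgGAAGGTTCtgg
Hsph1 (chr12:10427118-10427367, plus strand): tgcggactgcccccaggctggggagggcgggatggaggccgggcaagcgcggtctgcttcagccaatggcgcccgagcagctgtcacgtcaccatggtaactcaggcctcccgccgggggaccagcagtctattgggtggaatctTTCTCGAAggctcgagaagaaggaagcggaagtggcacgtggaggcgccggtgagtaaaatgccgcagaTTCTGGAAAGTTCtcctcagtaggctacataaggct
Hspb1 (chr12:26432302-26432551, minus strand): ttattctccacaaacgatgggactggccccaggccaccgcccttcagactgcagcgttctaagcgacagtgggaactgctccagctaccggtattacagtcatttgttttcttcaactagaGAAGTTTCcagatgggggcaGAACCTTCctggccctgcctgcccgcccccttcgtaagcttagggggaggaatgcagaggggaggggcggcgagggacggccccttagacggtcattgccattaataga
Hspb8 (chr12:45837058-45837307, plus strand): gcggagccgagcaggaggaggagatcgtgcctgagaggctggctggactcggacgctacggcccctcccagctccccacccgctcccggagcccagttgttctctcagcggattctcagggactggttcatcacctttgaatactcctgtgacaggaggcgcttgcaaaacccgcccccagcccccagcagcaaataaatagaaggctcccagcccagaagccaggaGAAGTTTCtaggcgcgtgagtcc
Hspa5, the chaperone of the endoplasmic reticulum, fell, and capitals mark the endoplasmic reticulum stress element, searched on both strands.
Hspa5 (chr3:38452766-38453015, plus strand): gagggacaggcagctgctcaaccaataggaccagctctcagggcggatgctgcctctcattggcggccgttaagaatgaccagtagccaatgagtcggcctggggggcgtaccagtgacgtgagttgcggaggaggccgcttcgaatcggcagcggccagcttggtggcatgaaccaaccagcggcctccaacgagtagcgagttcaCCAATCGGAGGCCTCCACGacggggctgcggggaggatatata
The clock repressor genes Bhlhe40 and Bhlhe41 rose and the clock output gene Tef fell, and capitals mark CACGTG, the E-box that clock proteins bind, which reads the same on both strands.
Bhlhe40 (chr4:143174200-143174449, plus strand): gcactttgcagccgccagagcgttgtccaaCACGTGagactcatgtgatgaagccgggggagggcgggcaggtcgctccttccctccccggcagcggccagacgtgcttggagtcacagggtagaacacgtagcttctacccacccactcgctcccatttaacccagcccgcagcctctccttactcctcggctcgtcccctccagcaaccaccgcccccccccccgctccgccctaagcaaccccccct
Bhlhe41 (chr4:180569356-180569605, minus strand): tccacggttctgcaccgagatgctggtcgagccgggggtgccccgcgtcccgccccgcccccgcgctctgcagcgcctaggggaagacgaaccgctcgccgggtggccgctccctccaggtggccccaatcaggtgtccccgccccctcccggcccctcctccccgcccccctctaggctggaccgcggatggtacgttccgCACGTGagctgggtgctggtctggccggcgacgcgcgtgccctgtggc
Tef (chr7:115206577-115206826, plus strand): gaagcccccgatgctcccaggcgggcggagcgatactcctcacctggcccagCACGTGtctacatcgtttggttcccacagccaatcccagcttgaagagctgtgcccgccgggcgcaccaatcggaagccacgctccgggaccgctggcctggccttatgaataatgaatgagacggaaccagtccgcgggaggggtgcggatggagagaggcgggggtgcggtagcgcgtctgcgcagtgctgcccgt
Among all 33469 windows of the same 250 bases in the table, 13.5% held a short heat shock element, 0.0657% the endoplasmic reticulum stress element and 5.59% the E-box.

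The dissection was checked against markers of the hippocampal fields and of other cell types. Of 11 tested CA3 neuron markers, 4 fell (Nrip3, Chgb, Elavl4 and Dkk3, by 1.15-fold to 1.23-fold) and 1 rose (Trhr, 1.61-fold), with the calls of Elavl4 and Trhr lost in 11 and 7 of the 17 fits that left out 1 array, and the median difference of the list was -0.18, against -0.02 over all 8726 genes tested. Trhr ran from 4.44 to 5.94 in aged impaired and from 3.99 to 5.05 in young animals, near the filter level of 4. Grik4, a kainate receptor subunit, and Bok, both CA3 markers, were well detected in every animal (lowest log2 levels 8.71 and 8.61) and were not called by their brightest probe sets, while a second probe set of Bok was lower (-0.24 ± 0.07 SE, adjusted p = 0.0382). Of the other probe sets of Dkk3, 1 was called at -0.32 and 1 stood at -0.06 with no call. The list's summed log2 level ran from 13.73 to 14.22 in aged impaired and from 14.15 to 14.37 in young animals. Of 9 CA1 markers, Etv1 alone rose, with its call lost in 6 of the 17 fits that left out 1 array, while the list's median was 0.37. Wfs1, which defines CA1, ran from 6.41 to 9.06 in aged impaired and from 5.70 to 8.11 in young animals, and the summed CA1 level from 11.04 to 12.31 and from 10.54 to 11.95. Of 4 tested CA2 markers, Pcp4 and Rgs14 fell, with a list median of -0.16, and Cacng5, Stard5, Ntf3 and Vit lay below the filter. The mean CA2 level ran from 9.25 to 9.43 in aged impaired and from 9.38 to 9.62 in young animals. In aged unimpaired animals it ran from 9.50 to 9.68. Both CA3 and CA1 ranges overlapped between the groups, and 4 CA3 markers (Iyd, St18, Coch and Socs2) and 1 CA1 marker (Fndc1) lay below the filter.

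Aged impaired array 2 stood apart on these markers. It had the lowest mean CA3 level of its group (9.22, next 9.46) and the highest CA1 (8.68, next 8.44), dentate (8.51, next 8.21), microglial (8.24, next 8.00) and astrocyte levels (10.61, next 10.51). Without it the list medians were -0.16 for CA3, with 3 falls, 0.26 for CA1, with 0 rises, and 0.67 for microglia, with 12 rises. A set of 138 called genes was followed gene by gene through every fit, and 126 of them were also called without this array. The other 12 were Cacna2d1, Cacna1a, Cacnb1, Grik5, Grin1, Glra2, Hsph1, Dbp, Bmal1, Apaf1, Etv1 and Elavl4. Pcp4, Rgs14, Bcas1, Tgfa, Fgfr2, Fgfr3, Fgf9, Gsk3a, Apc2 and Apc, named here as called members of lists, were not among the 138. What sets this array apart was not tested.

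The microglial list shifted most of the glial lists. Of 20 astrocyte markers, 7 rose and 0 fell with a median of 0.14 (summed level 15.82 to 16.16 in aged impaired, 15.57 to 15.87 in young animals). Of 15 microglia and macrophage markers, 12 rose and 0 fell with a median of 0.71, and their summed levels, 12.47 to 13.29 and 11.97 to 12.33, did not overlap. The defining microglial genes Cx3cr1 and Itgam lay below the filter. Of 21 oligodendrocyte and myelin markers, 3 rose and 2 fell (median 0.09; 7 rose and 0 fell without aged impaired array 7), with summed levels of 15.63 to 15.93 and 15.63 to 15.84. Of 7 oligodendrocyte precursor markers Bcas1 rose (median 0.12), and of 7 meningeal and fibroblast markers Bmp6 rose (median 0.09), with mean levels of 7.30 to 8.60 and 7.31 to 8.50 on the latter list. The lists for dentate granule cells (9 genes), interneurons (12), endothelium and pericytes (15), choroid plexus (5) and blood (3) held 0 calls in limma, with 2 of these 44 genes at an unadjusted p under 0.05 in the lower direction and 1 in the higher. For interneurons 1 gene was called in 3 of the fits that left out 1 array. The part of these cell types in the results that follow was not tested, and the neuronal falls below stand beside the CA3 median of -0.18, the astrocyte median of 0.14 and the microglial median of 0.71.

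**Figure D1:**
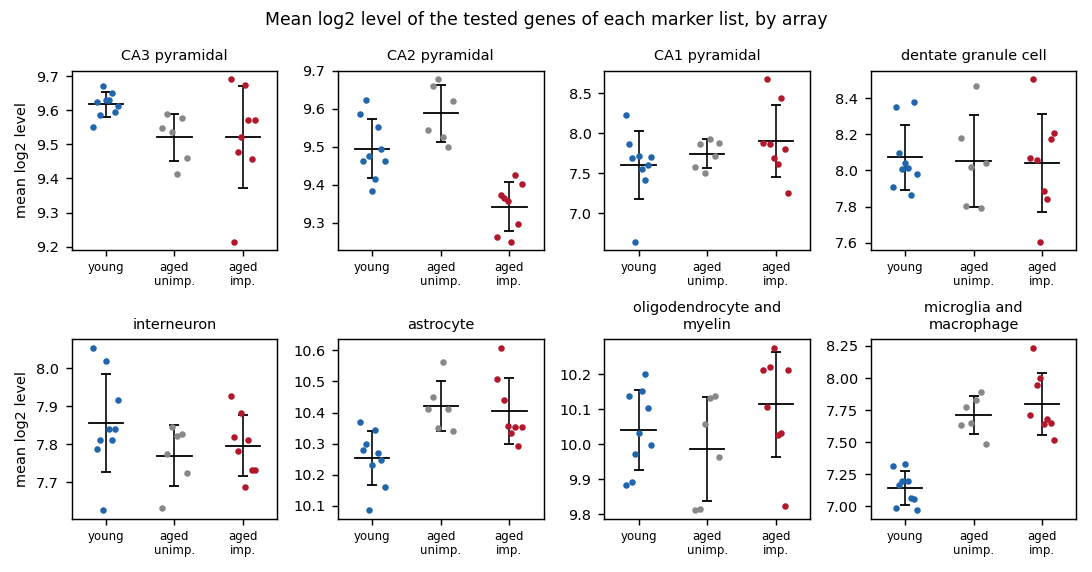
Mean log2 level of the tested genes of each marker list on every array, with 1 point per animal and the group mean and SD as bars (9 young, 6 aged unimpaired and 8 aged impaired animals). The microglial list of aged impaired animals lies above that of the young in every animal, and the CA1 list spreads widely in both groups.

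Rises were fewer and larger, and falls more numerous and smaller. Of 14647 probe sets, 1429 were called (9.76%), 568 of them higher (3.88%) and 861 lower (5.88%). Of 8726 genes, each represented by its brightest probe set, 892 were called (10.2%), of which 332 were higher (3.8%) and 560 lower (6.42%). The median difference of the called genes was 0.36 among rises and -0.21 among falls, and 105 rises but 15 falls reached 0.5 in size. The shares of 3.8% and 6.42% are the background for the list counts below. Falls took a growing share with level, from 2.77% of genes with a mean log2 level below 6 to 9.42% of those at 10 or more. The share of rises stayed between 3.41% and 4.06% over the same levels. Lists of bright genes therefore stand beside a larger share of falls than 6.42%. All 8 aged impaired animals lay above every young animal in 61 genes (0.699%) and below in 28 (0.321%). The split of the calls depended on how arrays were scaled, with 768 probe sets in each direction after centring every array on its median.

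**Figure D2:**
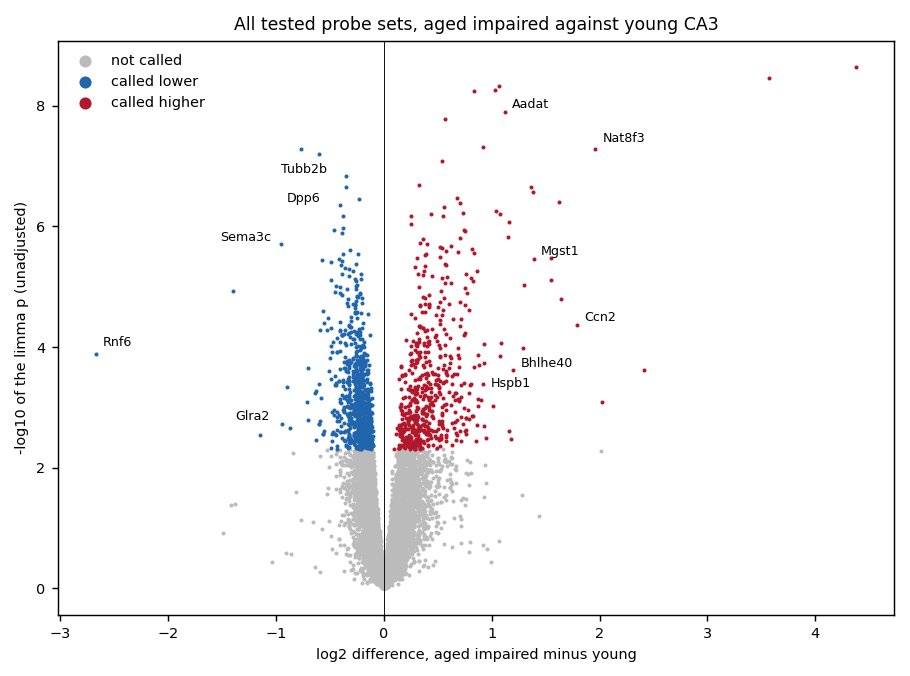
Each point is 1 tested probe set, with the log2 difference of aged impaired minus young animals on the horizontal axis and -log10 of the unadjusted limma p on the vertical axis. Called falls cluster at small differences and called rises reach larger ones.

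Of 9 tested subunits of voltage-gated calcium channels 6 fell and 0 rose, with all 9 differences below 0 and a median of -0.21, where 6.42% of all genes fell. These channels admit the calcium that releases transmitter and shapes firing. The N-type pore subunit Cacna1b ran from 8.28 to 8.54 in aged impaired animals (median 8.47) and from 8.53 to 8.81 in young animals (median 8.62), and 7 of 8 aged animals lay below every young one. Its difference was -0.21 ± 0.04 SE, or 1.16-fold lower (adjusted p = 0.00565). The auxiliary subunit Cacna2d3 lay between 10.20 and 10.56 (median 10.41) against 10.51 to 10.80 (median 10.57), again with 7 of 8 below every young animal, and was 1.14-fold lower (-0.19 ± 0.05, adjusted p = 0.0124). Cacnb3, a subunit that carries channels to the membrane, was 1.21-fold lower, with 4 of 8 animals below every young one. Without aged impaired array 2 these 3 subunits were still called, at -0.19, -0.16 and -0.25 in that order. Cacna2d1, Cacna1a and Cacnb1 lay near the threshold, and the count fell to 3 without aged impaired array 2, aged impaired array 4, young array 1 or young array 2.

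Among the 37 potassium and HCN channel genes 5 fell (13.5%, against 6.42% of all genes) and 1 rose (median -0.05). Dpp6, which tunes the fast A-type potassium current of dendrites, ran from 10.87 to 11.02 (median 10.94) in aged impaired and from 11.08 to 11.30 (median 11.16) in young animals. These ranges did not overlap, and the difference was -0.23 ± 0.03 SE (1.17-fold lower, adjusted p = 0.000266), although another probe set of Dpp6 stood at 0.07. Kcnh1, a delayed rectifier, was 1.29-fold lower (-0.37, and -0.26 without aged impaired array 2), Kcnj6, an inward rectifier opened by inhibitory receptors, 1.15-fold lower and Kcnmb4, which modifies the BK channel, 1.11-fold lower, each with 4 to 6 of 8 animals below every young animal. Kcnj16, a glial inward rectifier, rose 1.74-fold (0.80 ± 0.19, adjusted p = 0.0128). It ran from 5.33 to 6.39 (median 5.92) against 4.32 to 5.92 (median 4.96), with 4 of 8 animals above every young one.

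Ion pumps and their regulators changed in both directions. Fxyd7, a regulator of the Na,K-ATPase in brain, was 1.54-fold lower (9.14 to 10.34 with a median of 9.94, against 9.96 to 10.82 with a median of 10.52), and the groups overlapped in 4 of 8 animals. Its relative Fxyd1 was 1.29-fold higher (0.37 ± 0.09, adjusted p = 0.0162), and the sodium bicarbonate cotransporter Slc4a4, an astrocyte marker here, was 1.18-fold higher with 7 of 8 animals above every young one, its other probe set standing at 0.53 with no call. In the pump list of 19 genes 4 rose and 2 fell, and the falls numbered 1 in 7 of the fits that left out 1 array.

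Of 42 genes of the vesicle release machinery 8 fell (19%, against 6.42% of all genes), 0 rose and 34 were not called. The median was -0.09, with 32 of 42 below 0. Syn1, which tethers vesicles in reserve, ran from 11.25 to 11.63 (median 11.52) in aged impaired and from 11.62 to 11.85 (median 11.67) in young animals, with 7 of 8 below every young animal. It was 1.16-fold lower (-0.21 ± 0.05 SE, adjusted p = 0.0083), and its other probe set stood at -0.20. The fusion protein Stx1a, the active zone scaffold Erc1, the calcium sensor relative Syt4 and the clathrin adaptor Snap91 were 1.21-fold, 1.19-fold, 1.15-fold and 1.09-fold lower. Other probe sets of Stx1a, Erc1 and Syt4 stood at -0.05, -0.10 and 0.05 and were not called. Synpr, a vesicle protein enriched in mossy fibre terminals, stood at -0.35 ± 0.11 (adjusted p = 0.0451), and its call ended in 13 of the 17 fits that left out 1 array.

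Receptors for glutamate and their partners held 5 falls (23.8%, against 6.42% of all genes) and 0 rises among 21 tested genes (median -0.04). Nptxr, which gathers AMPA receptors at synapses, ran from 11.84 to 12.21 (median 12.18) against 12.27 to 12.47 (median 12.32) in young animals. The ranges did not overlap, the low end belonging to aged impaired array 2, and the difference was -0.21 ± 0.05 (1.15-fold lower, adjusted p = 0.0082), or -0.16 without that array. The AMPA receptor auxiliary subunit Cacng2 was 1.36-fold lower (-0.45 ± 0.11, adjusted p = 0.0126, 7 of 8 animals below every young one) while its other probe set stood at 0.11. Nptx1, the secreted partner of Nptxr, was 1.15-fold lower. The count was 3 in 12 of the 17 fits that left out 1 array, since Grik5 and Grin1 lay near the threshold, and the other probe set of Grin1 stood at 0.07. Grm3, a metabotropic receptor of astrocytes and terminals, was 1.31-fold higher (9.90 to 10.50 with a median of 10.27, against 9.71 to 10.07 with a median of 9.82), with 7 of 8 animals above every young one. In aged unimpaired animals its difference from young was -0.06, and limma called aged impaired against aged unimpaired animals, a contrast that calls 0.435% of all genes and shares the aged impaired arrays.

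Inhibitory receptors held 3 falls among 11 tested genes, and 1 fall without aged impaired array 2, young array 3 or young array 8. Gabra5, the GABA-A subunit of tonic inhibition in the hippocampus, ran from 11.52 to 11.75 (median 11.61) against 11.73 to 11.86 (median 11.78), and 7 of 8 animals lay below every young one (1.12-fold lower, adjusted p = 0.0192). The glycine receptor subunit Glra2 was 1.91-fold lower with a wide spread, from 4.29 to 6.10 against 5.83 to 6.87, and its call ended in 5 fits that left out 1 array (-0.77, adjusted p = 0.0608, without aged impaired array 2). The somatostatin receptor Sstr2, through which interneurons quiet pyramidal cells, ran from 4.96 to 5.65 (median 5.30) against 5.54 to 6.30 (median 5.95) and was 1.51-fold lower (-0.60 ± 0.14, adjusted p = 0.0124). Trhde, which degrades thyrotropin-releasing hormone, was 1.56-fold lower, with a difference from young of 0.07 in aged unimpaired animals. It ran from 3.76 to 5.06 against 4.79 to 5.39 in young animals, near the filter level of 4. Of the 15 neurotransmitter transporters limma called 0, with 2 higher and 3 lower at an unadjusted p under 0.05, and 1 was called without aged impaired array 1, aged impaired array 4 or young array 7. On the 38 scaffold and synaptic adhesion genes, 5 fell, led by the presynaptic adhesion protein Nrxn2 (1.16-fold, 6 of 8 animals below every young one), and the count was 3 without aged impaired array 3 or young array 3.

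**Figure D3:**
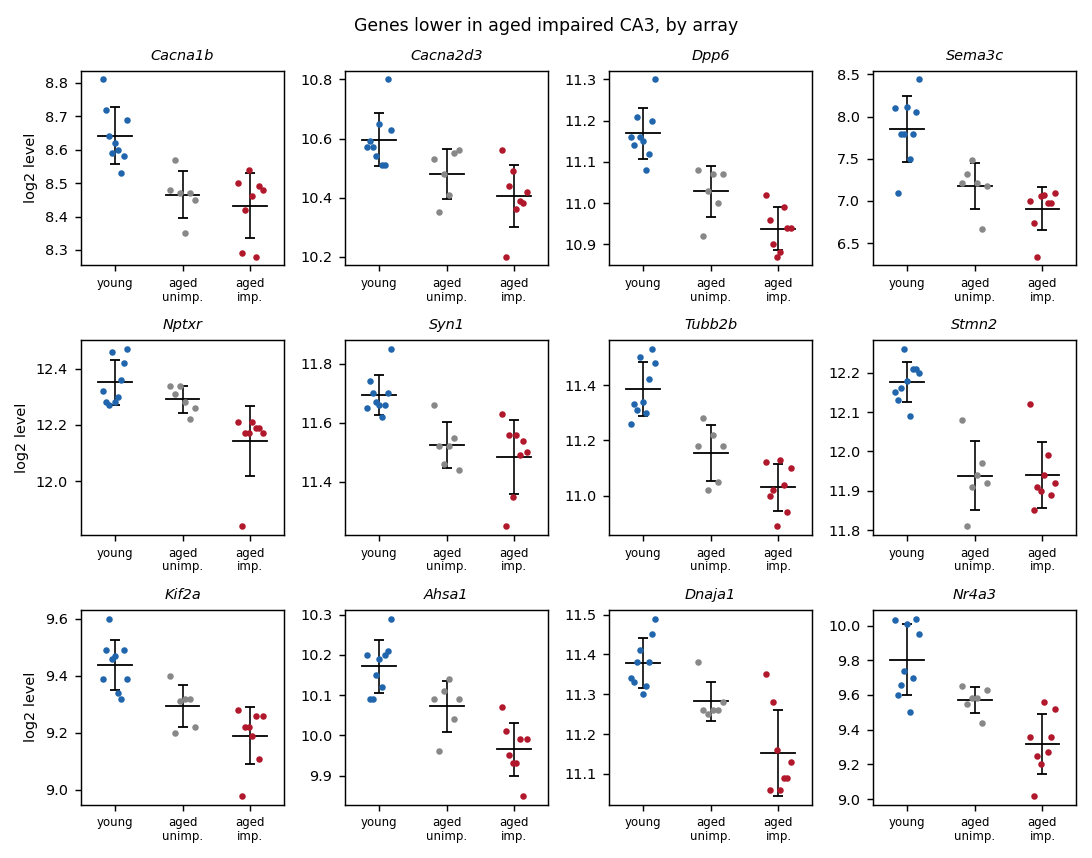
Log2 level of 12 genes that were lower in aged impaired CA3, with 1 point per animal and the group mean and SD as bars (9 young, 6 aged unimpaired and 8 aged impaired animals). Dpp6, Nptxr, Tubb2b, Kif2a and Ahsa1 show no overlap between aged impaired and young animals.

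Semaphorins and their plexin and neuropilin receptors steer growing axons and refine synapses. Of 20 tested genes 5 fell (25%, against 6.42% of all genes), 0 rose and 15 were not called. Of the 20, 16 were below 0, with a median of -0.14. The secreted ligand Sema3c ran from 6.34 to 7.09 (median 6.99) in aged impaired and from 7.09 to 8.44 (median 7.79) in young animals, and 7 of 8 lay below every young animal. It was 1.93-fold lower (-0.95 ± 0.15 SE, adjusted p = 0.000673). Among the receptors of the family, the plexin Plxna3 ran from 6.35 to 6.62 against 6.61 to 6.94 and was 1.2-fold lower, and the coreceptor Nrp1 ran from 9.54 to 9.91 against 9.75 to 10.17 and was 1.16-fold lower. Their other probe sets, at -0.05 for Plxna3 and -0.15 for Nrp1, were not called. The family's count was 3 without aged impaired array 2 and 3 after quantile normalization. Of 21 ephrins, netrins, slits and their receptors, 0 passed limma's threshold, with 1 higher and 2 lower at an unadjusted p under 0.05. Whether the 2 families differ was not tested.

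Outside these lists, Flrt3, an adhesion partner of latrophilins, was 1.35-fold lower (7.46 to 7.95, median 7.63, against 7.73 to 8.36, median 8.09). Nfasc, which anchors the axon initial segment and the paranode, was 1.22-fold lower, the alpha catenin Ctnna2 1.15-fold lower and B3gat2, which makes the HNK-1 glycan of adhesion molecules, 1.42-fold lower. For these genes 5 to 7 of 8 animals lay below every young one, and other probe sets of Nfasc ran from -0.23 to 0.12. Fstl5, a secreted follistatin relative, ran from 7.63 to 8.29 (median 8.12) against 8.33 to 8.76 (median 8.57) without overlap, and was 1.41-fold lower (-0.49 ± 0.09, adjusted p = 0.0013).

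Some genes of microtubules and of the motors that run on them fell. Among 39 tubulins and microtubule-associated proteins 7 fell (17.9%, against 6.42% of all genes), 1 rose and 31 were not called. Of the 39, 30 were below 0, with a median of -0.07. Tubb2b ran from 10.89 to 11.13 (median 11.03) in aged impaired and from 11.26 to 11.53 (median 11.34) in young animals, with no overlap, and was 1.28-fold lower (-0.35 ± 0.05 SE, adjusted p = 0.000166). The tubulin-binding growth protein Stmn2 was 1.18-fold lower (-0.24 ± 0.04, adjusted p = 0.000789, 7 of 8 animals), its other probe set stood at -0.14 with no call, and its difference in aged unimpaired animals was also -0.24. The neuronal Tubb3 and the subunits Tuba4a and Tubb4b were 1.12-fold, 1.12-fold and 1.11-fold lower. Map7, which recruits kinesin-1, went the other way (10.15 to 10.46 against 9.68 to 10.09, no overlap, 1.28-fold higher), and its other probe sets stood at 0.33 and 0.36.

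Of 42 kinesin, dynein and dynactin genes 7 fell (16.7%, against 6.42% of all genes) and 2 rose (median -0.06). Without aged impaired array 1, 12 fell. Kif2a, a kinesin that trims microtubule ends, ran from 8.98 to 9.28 (median 9.22) against 9.32 to 9.60 (median 9.46) without overlap, at 1.19-fold lower (-0.25 ± 0.04, adjusted p = 0.00188). Another probe set of Kif2a was also lower (-0.20), and the third, at -0.01, was not called. Kif3b, a motor of kinesin-2, was 1.22-fold lower, the dynein chains Dync1i1 and Dync1h1 1.15-fold and 1.12-fold, and the mitochondrial adaptor Rhot1 1.11-fold. Trak1, which links mitochondria to kinesin, was 1.2-fold lower (9.74 to 10.05 with a median of 9.83, against 9.93 to 10.32 with a median of 10.11) and stood at 0.01 in aged unimpaired animals. Kif1c, a kinesin of Golgi and vesicle transport, rose 1.48-fold (0.57 ± 0.12, adjusted p = 0.00563).

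Actin genes changed in both directions. Of 81 genes 7 rose and 3 fell, with 40 above and 41 below 0. The genes that rose included Msn, a membrane-actin linker of non-neuronal cells (7.65 to 8.12, median 7.85, against 7.03 to 7.63, median 7.43, 8 of 8 above every young animal, 1.40-fold), the Arp2/3 subunit Arpc1b (1.5-fold), the calponin Cnn3 (1.26-fold) and vinculin, Vcl (1.31-fold, 6 of 8 above and 1 below every young animal, other probe set at 0.07 with no call). For Capg, whose young mean lay below the filter level of 4, the rise was at least 1.28-fold. Arpc1b lay near that level, from 4.45 to 5.50 against 3.99 to 4.63 in young animals. The genes that fell were Myo16, Wasf1 and Myh10, of which Wasf1, a driver of branched actin, was 1.11-fold lower, and without aged impaired array 1 the falls numbered 7. The rises stand beside the microglial median of 0.71 and the astrocyte median of 0.14, and the part of these cells was not tested.

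Extracellular matrix and its enzymes changed in both directions. Col4a1 ran from 5.27 to 6.02 (median 5.78) in aged impaired and from 6.00 to 6.73 (median 6.22) in young animals, with 7 of 8 below every young one, and was 1.48-fold lower (-0.56 ± 0.11 SE, adjusted p = 0.00263), with its other probe set also called at -0.27. Its neighbour Col4a2, which shares the printed start region, ran from 7.63 to 8.27 (median 8.07) against 8.11 to 8.45 (median 8.32) and was 1.23-fold lower (-0.30 ± 0.08, adjusted p = 0.02). Loxl1, which crosslinks elastin, was 1.35-fold lower. The endothelial and pericyte list held 0 calls, with a median of 0.06. The integrin subunit Itgav ran from 8.78 to 9.27 against 7.79 to 8.77 (1.43-fold higher, 8 of 8 animals).

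The protease inhibitor A2m, known in rat as an acute phase protein, rose 1.71-fold (8.18 to 8.88, median 8.50, against 7.25 to 8.17, median 7.90, adjusted p = 0.00174), and the metalloproteinase inhibitor Timp2 rose 1.47-fold, its other probe set standing at 0.16 with no call. Aebp1, a matrix-binding protein of fibroblast-like cells, ran from 6.30 to 7.59 (median 7.03) against 5.56 to 6.34 (median 5.90) and was 2.05-fold higher (1.04 ± 0.15, adjusted p = 0.000332). Ccn2, a matricellular target of YAP, ran from 6.82 to 8.86 (median 7.91) against 5.04 to 7.22 (median 5.49), with 6 of 8 above every young animal. Its list of CCN, YAP and SRF pathway genes held 7 other tested genes. Of these 1 was called, Mrtfa, listed as a coactivator of SRF and not as a target, which was 1.19-fold lower. Hapln2, a link protein of the node of Ranvier, was 1.42-fold higher.

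Several chaperones fell and a pair of small heat shock proteins rose. Of 72 heat shock chaperones and cofactors 11 fell (15.3%, against 6.42% of all genes) and 3 rose. Of the 72, 52 were below 0, with a median of -0.07, and without aged impaired array 1 the falls were 17. Ahsa1, which activates the HSP90 ATPase, ran from 9.85 to 10.07 (median 9.97) against 10.09 to 10.29 (median 10.19) with no overlap, and was 1.15-fold lower (-0.21 ± 0.03 SE, adjusted p = 0.00118). Dnaja1, an HSP40, ran from 11.06 to 11.35 (median 11.11) against 11.30 to 11.49 (median 11.38) and was 1.17-fold lower (7 of 8 animals below every young one). Dnajb1, the HSP40 whose upstream stretch is printed above, was 1.22-fold lower (-0.28 ± 0.07, adjusted p = 0.0115, 7 of 8 animals), its other probe set standing at -0.12 with no call. Chordc1, an HSP90 partner, was 1.31-fold lower, with -0.06 against young in aged unimpaired animals. The chaperonin subunits Cct6a, Cct4 and Cct2 were 1.14-fold, 1.11-fold and 1.11-fold lower, the last not called without aged impaired array 5, and another probe set of Cct6a stood at -0.10 with no call. Stip1, which links HSP70 and HSP90, was 1.14-fold lower.

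The small heat shock protein Hspb1 ran from 7.33 to 9.10 (median 8.22) in aged impaired and from 6.90 to 7.40 (median 7.10) in young animals, with 7 of 8 above every young one, and rose 1.89-fold (0.92 ± 0.22, adjusted p = 0.0124). Hspb8, a partner of selective autophagy, rose 1.46-fold (6.56 to 7.78 against 5.85 to 6.59, 5 of 8 animals above every young one). The short heat shock element stands in the upstream stretch of 5 of the 11 genes that fell and 2 of the 3 that rose, against 18 of 60 tested list members with a stretch in the table. Both directions therefore hold the motif, and this describes letters and not binding. In the endoplasmic reticulum list of 41, 3 fell: Hspa5 (1.21-fold, 11.38 to 11.83 against 11.54 to 12.04), the secreted Manf (1.25-fold, 8.75 to 9.18 against 9.04 to 9.43) and the disulfide isomerase Pdia6 (1.14-fold). The printed Hspa5 stretch holds the endoplasmic reticulum stress element 43 bases upstream of the start. The call of Pdia6 ended in 7 fits that left out 1 array, and the list held 5 falls without aged impaired array 6 or young array 5.

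Among genes of translation, falls exceeded the background share of 6.42% on the tRNA synthetase list and not on the others. Of 28 aminoacyl tRNA synthetases and their scaffold 5 fell (17.9%) and 0 rose (median -0.03), and the count ran from 2 without aged impaired array 3 to 8 without aged impaired array 1. The scaffold Aimp2 was 1.19-fold lower (7.42 to 7.82, median 7.56, against 7.69 to 7.96, median 7.80, adjusted p = 0.0031). Of the 59 initiation and elongation factors 3 fell (5.08%), namely Eif1b and 2 subunits of the exchange factor eIF2B, which the stress response targets. Eif2b5 was 1.33-fold lower (5.66 to 6.00, median 5.80, against 6.00 to 6.49, median 6.22, 7 of 8 animals) and Eif2b4 1.17-fold lower. Among 41 cytosolic ribosomal proteins 39 were above 0 (median 0.09) with 3 rises, a count that ran from 0 to 8 (without aged impaired array 7) when 1 array was left out and reached 20 after quantile normalization and 9 after median centring. Of 73 mitochondrial ribosomal proteins 59 were below 0 (median -0.05), with 0 rises and 4 falls, or 5.48% (1 without aged impaired array 7 or young array 7, 10 without aged impaired array 1). Over all 8726 genes 3520 were above and 5204 below 0. The cold-inducible RNA-binding protein Rbm3 rose 1.40-fold (10.11 to 10.62 against 9.65 to 10.54), with young arrays 1 and 5 inside the aged range.

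Of 144 UBE, RNF, TRIM and USP enzymes of the ubiquitin system 9 fell (6.25%, against 6.42% over all genes) and 2 rose, and 21 fell without aged impaired array 1. Rnf6, a RING ligase, had the largest fall among called genes (6.36-fold, adjusted p = 0.00694, 5 of 8 animals below every young one) and a wide spread, from 3.11 to 7.93 (median 7.08) in aged impaired and from 7.87 to 9.17 (median 8.93) in young animals. Aged impaired arrays 5 and 8, at 3.37 and 3.11, lay below the filter level of 4 and widen this fold. The F-box protein Btrc, which marks beta-catenin and IkB for destruction, ran from 7.47 to 7.81 (median 7.61) against 7.90 to 8.23 (median 7.96) with no overlap (1.30-fold lower, adjusted p = 0.000479). Its other probe sets stood at -0.05 and -0.16. On the lysosome and autophagy list of 81 genes, rises numbered 13 (16%, against 3.8% of all genes) and falls 2 (median 0.04). The rises were led by the cathepsin Ctsz (2.56-fold) and stand beside the microglial median of 0.71. Laptm5 and Ctss are called on both lists, so the lists are not separate. The falls numbered 4 without aged impaired array 1.

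Mitochondrial energy genes shifted by little. Of 34 complex I genes 27 were below 0 (median -0.04) with 1 fall (0 in 12 of the fits that left out 1 array), and of 12 genes of complexes II and III 11 were below 0 (median -0.05) with 3 falls (1 in 10 of those fits), of which Uqcr11 held in every fit that left out 1 array (12.17 to 12.34 against 12.33 to 12.49, 1.10-fold lower). All 15 ATP synthase genes were below 0 (median -0.07) with 0 called by limma, 3 lower at an unadjusted p under 0.05 and 1 called without aged impaired array 1. After quantile normalization or median centring 14 of the 15 were below 0. In the tricarboxylic acid cycle list of 30 genes Dlst and Sucla2, which act in consecutive steps around succinyl-CoA, were 1.14-fold and 1.13-fold lower, and 4 fell without aged impaired array 1.

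Of 81 glutathione, antioxidant and detoxifying genes 10 rose (12.3%), 1 fell and 70 were not called (median 0.05, with 31 below 0), where 3.8% of all genes rose. Nat8f3, an N-acetyltransferase relative, ran from 5.36 to 6.52 (median 6.15) in aged impaired and from 3.57 to 4.43 (median 4.12) in young animals, with no overlap, and rose 3.89-fold (1.96 ± 0.24 SE, adjusted p = 7.65e-05). The microsomal glutathione transferase Mgst1 ran from 6.46 to 7.56 against 4.57 to 6.63 and was 2.61-fold higher, the transferase Gstp1 from 10.91 to 11.24 against 10.32 to 10.68 and 1.48-fold higher (8 of 8 animals, adjusted p = 3.54e-05), and Gsta1 was 1.49-fold higher. Cyp4f4, a fatty acid hydroxylase, was at least 1.49-fold higher. Close members of the glutathione transferase family can share probe sequence and were not separated here. For each of these genes aged unimpaired animals were higher than young by 0.40 to 1.75.

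Aadat, which makes the glutamate and acetylcholine receptor antagonist kynurenic acid, ran from 5.36 to 6.37 (median 6.00) against 4.54 to 5.25 (median 4.79) with no overlap. It rose 2.17-fold (1.12 ± 0.13, adjusted p = 3.1e-05), and stood at 1.18 above young in aged unimpaired animals. The iron oxidase ceruloplasmin, Cp, rose 1.90-fold, the metallothionein Mt2A 1.49-fold and the transferrin receptor Tfrc was 1.33-fold lower (9.53 to 9.94, median 9.79, against 9.64 to 10.43, median 10.15). The thyroid hormone transporter Slco1c1, found in brain vessels and astrocytes, was 1.31-fold lower (8.89 to 9.18, median 8.98, against 9.13 to 9.61, median 9.41, 7 of 8 animals, adjusted p = 0.00052), and so was the hormone receptor Thra (1.17-fold), whose other probe set stood at -0.03 with no call.

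Lipid genes changed in both directions. Some sterol carriers and regulators rose. Srebf1, the sterol and fatty acid synthesis factor, ran from 8.84 to 9.55 (median 9.02) against 8.52 to 8.82 (median 8.64) with no overlap (1.36-fold, adjusted p = 0.00412), and Apod, Clu and Apoe were 1.32-fold, 1.19-fold and 1.11-fold higher, another probe set of Clu standing at 0.07 with no call. The synthesis enzyme Sqle was 1.16-fold lower, within a list of 38 in which 6 rose and 3 fell (1 in 6 of the fits that left out 1 array, 5 without aged impaired array 1). Of 54 genes of fatty acid, phospholipid and sphingolipid synthesis 9 fell and 1 rose, and 5 fell without aged impaired array 7 or young array 9. Smpd3, a sphingomyelinase, ran from 8.16 to 8.94 (median 8.79) against 8.95 to 9.22 (median 9.11), with no overlap (1.29-fold lower, adjusted p = 0.00452), its low end set by aged impaired array 2 and its difference moving from -0.37 to -0.29 without that array. Cers6, a ceramide synthase, and B4galnt1, which makes complex gangliosides, were 1.25-fold and 1.19-fold lower.

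Growth factor and morphogen pathways held calls on several lists. Of 35 TGF beta, BMP and activin genes 6 rose (17.1%, against 3.8% of all genes) and 1 fell, with a median of -0.01. Of 16 genes of the FGF, EGF, PDGF and VEGF pathways 3 rose (18.8%, against 3.8% of all genes), namely Tgfa, Fgfr2 and Fgfr3. Fgf9 fell. Without aged impaired array 2 this list held 2 rises and 0 falls, and after median centring 3 rises and 0 falls. Of 27 Wnt pathway genes 4 fell, namely Gsk3a, Apc2, Apc and Dkk3, the last also a CA3 neuron marker here. When 1 array was left out 1 to 4 fell, with 1 without aged impaired array 4 or young arrays 2, 3, 7 or 8. After quantile normalization 1 fell, and after median centring 1 fell. The BMP target Id4, an inhibitor of neural differentiation factors, ran from 8.97 to 9.51 (median 9.11) against 8.12 to 8.93 (median 8.55) with no overlap (1.54-fold, adjusted p = 0.0014), and its other probe sets ran from 0.19 to 0.56. The receptor Tgfbr1 was 1.44-fold higher and the ligand Bmp6 1.38-fold, its other probe set standing at 0.10 with no call. Id4 and Fgfr3 are also on the astrocyte list (median 0.14) and Bmp6 on the meningeal list (median 0.09). The part of these cells in the rises was not tested. Id2 was 1.46-fold higher (0.55 ± 0.13, adjusted p = 0.00922, 8 of 8 animals), while its other probe set stood at -0.20 and aged unimpaired animals at -0.05. Rasgrp3, an activator of Ras and Rap, ran from 7.10 to 7.68 against 6.36 to 6.96 (1.67-fold, 8 of 8 animals), and the phosphatase Ptpn11 was 1.29-fold higher. Of 32 insulin, IGF, mTOR and FOXO genes, 0 were called by limma, with 3 higher and 6 lower at an unadjusted p under 0.05.

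The clock list of 17 genes held 3 rises and 3 falls (median 0.07), and 1 fall without aged impaired array 3, aged impaired array 7, young array 3 or young array 8. Bhlhe41 ran from 9.32 to 9.83 (median 9.44) against 8.70 to 9.30 (median 8.96), with no overlap, and was 1.46-fold higher (0.55 ± 0.08, adjusted p = 0.000332). Bhlhe40 was 2.29-fold higher (4.93 to 6.70, median 5.59, against 3.53 to 5.44, median 4.55, 5 of 8 animals). Tef was 1.23-fold lower, while another of its probe sets stood at 0.35. The E-box stands 220, 48 and 198 bases upstream of the starts of Bhlhe40, Bhlhe41 and Tef. The calls of Dbp and Bmal1 ended in 7 and 14 fits that left out 1 array. The hour of killing was not used here.

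In the nucleus, Nr4a3, an orphan receptor induced by activity, ran from 9.02 to 9.56 (median 9.31) against 9.50 to 10.04 (median 9.74) and was 1.40-fold lower (-0.49 ± 0.08, adjusted p = 0.000914, 6 of 8 animals), while of 21 immediate early genes it alone was called. The neuronal factors Neurod6 and Myt1l were 1.16-fold and 1.18-fold lower. Mdm4, which restrains p53, ran from 7.36 to 7.92 against 7.10 to 7.31 with no overlap (1.37-fold higher), and of the 29 DNA repair and p53 response genes it was the 1 call. The linker histone H1f10 ran from 5.88 to 6.75 against 6.78 to 7.06, again without overlap (1.30-fold lower). The caspase inhibitor Xiap was 1.37-fold higher and the apoptosome protein Apaf1 1.19-fold lower, its call ending in 6 fits that left out 1 array.

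**Figure D4:**
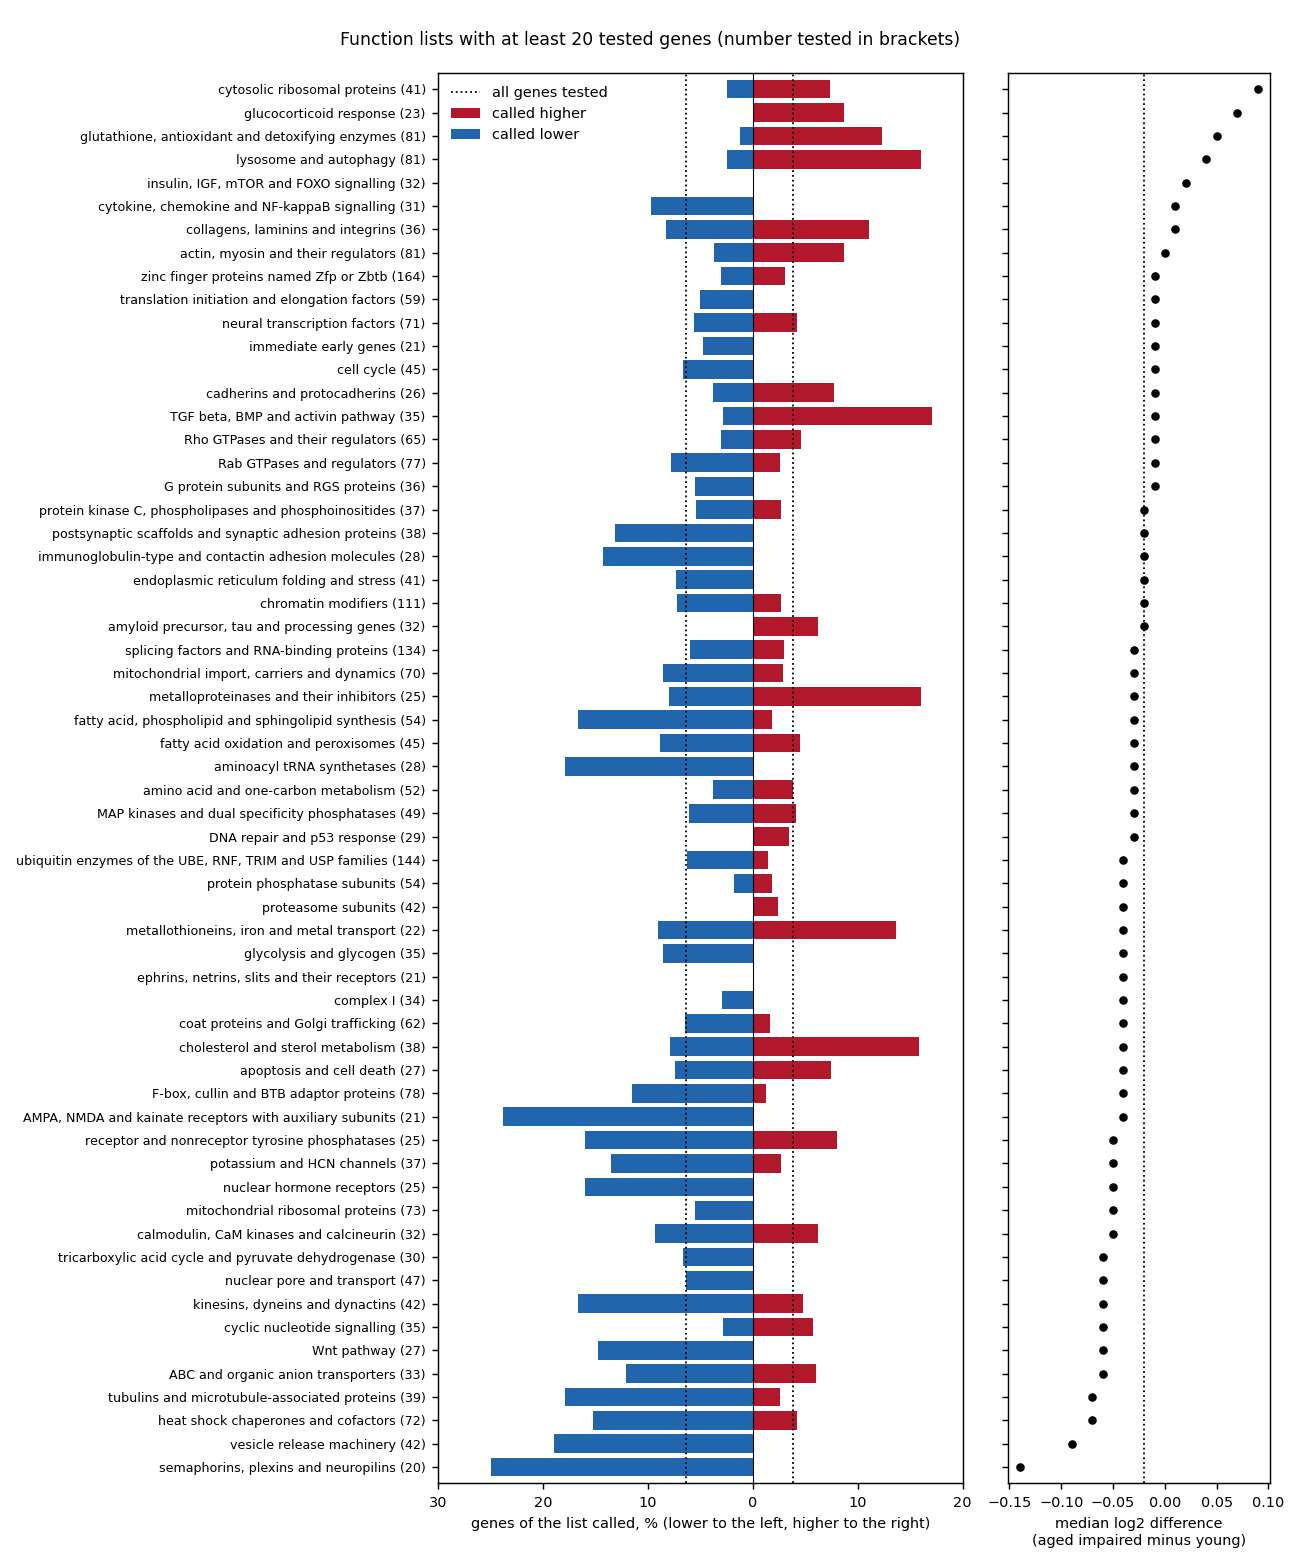
Share of genes called lower (left) and higher (right) for each function list with at least 20 tested genes, and the median log2 difference of its genes. The dotted lines mark all genes tested, with 6.42% lower, 3.8% higher and a median of -0.02. By median, semaphorin list lies lowest and cytosolic ribosomal proteins highest.

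**Figure D5:**
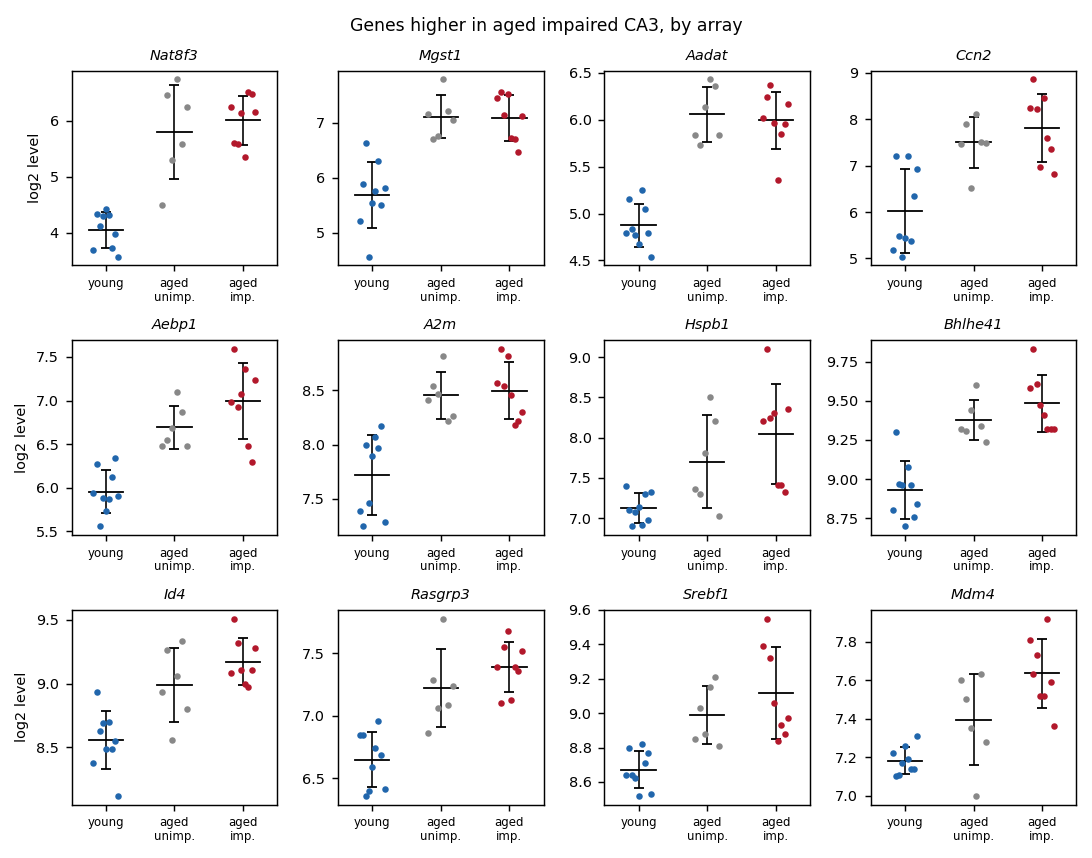
Log2 level of 12 genes that were higher in aged impaired CA3, with 1 point per animal and the group mean and SD as bars (9 young, 6 aged unimpaired and 8 aged impaired animals). Nat8f3, Aadat, A2m, Bhlhe41, Id4, Rasgrp3, Srebf1 and Mdm4 show no overlap between aged impaired and young animals.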

How the data were processed

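RNA from microdissected CA3 of 23 rats was hybridised to Affymetrix rat genome arrays, and the deposited values are log2 expression levels computed by the authors with GCRMA, per the submitters' processing notes. Depth has no meaning for arrays, and the number of animals limits the precision. Each title names a separate biological replicate. Of 31099 probe sets, 57 controls were left out, and the 14647 that reached a level of 4 or more on 6 or more arrays entered limma 3.58.1 in R 4.3.3 with 1 mean per group over all 23 arrays and Benjamini-Hochberg adjustment over all probe sets tested. The fit was tested on simulated data. A gene is represented by its brightest tested probe set. Symbols come from the platform annotation, where 20826 probe sets had 1 symbol, 436 several and 9780 none.

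The members and gene lists were chosen with earlier results of these data known, so list counts and medians describe and support nothing. Genes were drawn from those picked by rule: the 15 largest rises and falls outside the immune lists, up to 3 largest per list and direction, genes without overlap between groups, the first 2 markers of each cell type and the members of counts of 5 or fewer. Not all picked genes are named. Ccer2, Acer2, Anxa4 and Abca3 are among those left out, as are some members of small counts. A further 27 called genes were chosen after their values were seen. Where a group mean lies below 4, a fold is a bound against that level. Alternatives were other filters, a floor, quantile normalization, median centring, 2 groups only, array weights, trend and robust fitting, a replicate block, a control-probe covariate and leaving out arrays.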

Additional observations from a re-analysis of the deposited data

Results flagged for a closer look

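For 282 sets of 8 or 9 arrays (141 genes in 2 groups) the gap between the most extreme array and its nearest neighbour was checked, and 17 passed the 95% limit, where chance passes about 1 in 20. Aged impaired array 2 was the lowest of its group for Cacna1a (log2 level 5.71), Kcnh1 (6.97), Nptxr (11.84) and Smpd3 (8.16). This array also had the lowest CA3 and the highest CA1, dentate and microglial marker levels of its group. Without it Cacna1a was not called, while Kcnh1, Nptxr and Smpd3 were called at -0.26, -0.16 and -0.29. Other aged impaired arrays stood apart at the low end for Slc4a4 (9.98) and Sema3c (6.34) and at the high end for Slco1c1 (9.18) and Bok (9.38). Young arrays stood apart at the high end for Cacna2d3 (10.80), Fxyd1 (8.00), Vcl (9.14) and Wasf1 (11.90). They stood apart at the low end for Stx1a (9.23), Cct2 (10.29), Rnf6 (7.87), Eif2b4 (8.07) and Tfrc (9.64).

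Aged impaired animals also differed from aged unimpaired animals, in a contrast that shares their arrays with the one above and called 0.435% of genes by limma. Grm3, Id2 and Xiap were higher by 0.46, 0.60 and 0.76 on the log2 scale, and Trak1 and Chordc1 differed by -0.27 and -0.33.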

How the results depend on the processing

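The number of called probe sets fell from 1429 (568 higher, 861 lower) to 768 (317 higher, 451 lower) with no filter on low values and to 870 (360 and 510) with the replicate number as a block. It fell to 934 (350 higher) with a control gap as covariate, the level of the 5′ Gapdh control probe set minus that of the middle one. The gap was lowest on aged impaired arrays 1 and 2 (2.024 and 2.030), while young arrays ran from 2.078 to 2.456. With it 24 of the 138 followed genes lost their call. Equal replicate numbers did not pair the animals (correlations of deviations -0.062 to 0.090). The share of higher calls, 39.7%, was 43.9% after quantile normalization, 50.0% after median centring, 44.7% with the 2 compared groups alone, 36.4% with array weights and 26.7% without both aged impaired arrays 1 and 2, a choice made after seeing the data. Leaving out 1 array gave 1017 to 1808 calls, 408 to 645 higher and 609 to 1288 lower, and a share of 28.8% to 50.4%. The lowest counts came without aged impaired array 2. The most calls and falls came without aged impaired array 1, and the most rises without aged impaired array 7. For the fits behind these changes the cause was not tested. Of the 138 called genes followed through the fits, 121 kept their call in all 17 fits that left out 1 array. In all 28 alternatives that kept the probe set 98 kept it, and 0 reversed. Small falls near the threshold are the least certain, and values near a log2 level of 4 are limited by signal over background.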
